A study of Mus musculus with 20 samples.

Results

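A group of 10 genes that serve the resting functions of astrocytes were followed in 20 brain RNA-seq libraries from mice in the chronic phase of stroke. The members are Slc1a2, Slc1a3, Glul, Aqp4, Kcnj10, Gja1, Gjb6, Aldh1l1, Aldoc and S100b. They were taken from a list of symbols, and all 10 were found by Ensembl identifier among the 46078 genes of the count tables. All 10 passed the filter on low counts in every comparison.

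Astrocytes clear synaptic glutamate through membrane transporters and convert it to glutamine, which is handed back to neurons. Their endfeet around blood vessels carry water channels and inwardly rectifying potassium channels, and gap junctions made of connexins join astrocytes into networks through which potassium and metabolites spread. After brain injury astrocytes near the lesion become reactive, a state marked by the intermediate filament gene Gfap.

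The mice were 18-month-old C57BL/6J wild-type animals, described as male in the methods, and all of them had a DH stroke, which is occlusion of the distal middle cerebral artery combined with hypoxia. From 1 week after stroke they received subcutaneous injections 3 times per week for 6 weeks, either of PBS (vehicle) or of hydroxypropyl-β-cyclodextrin (HPBCD), a ring-shaped sugar polymer that takes up cholesterol, at 4 g/kg. Tissue was taken 7 weeks after stroke from the peri-infarct region, dissected after the infarct itself had been cut away, and from the matching contralateral region. There were 5 libraries in each of 4 groups, and no group came from mice without stroke, so contralateral tissue is not uninjured tissue. Which libraries came from HPBCD mice is known here from their labels alone, and those labels are in doubt: reactive astrocyte and neuron markers of the peri-infarct libraries differ between the treatments in the opposite direction to the one the study describes. Vehicle and HPBCD stand below for libraries labelled so. The labels may be exchanged, or the study may give its comparison in the reverse order, and neither was tested. If the labels were exchanged, every difference between treatments and every interaction would change its sign, and the regional differences given for one treatment would belong to the other.

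Gene counts per library ranged from 14445021 to 22171627, and the floor of 3 counts equalled 0.135 to 0.208 CPM, while the lowest value of any member in any library was 51.5 CPM. Levels are given as CPM, that is counts scaled to a library total of 1000000 with TMM factors, in the order of replicates 1 to 5 wherever 5 values are listed. Vehicle contralateral replicate 1 stood apart in the summed level of 8 striatum markers, at 3375 CPM against 197 to 283 CPM in the other 4 libraries of its group, and the peri-infarct libraries had 332 to 2003 CPM. HPBCD contralateral replicate 3 stood apart in 9 ependyma and choroid plexus markers, at 645 CPM against 8.57 to 14.7 CPM in the others of its group. Without vehicle contralateral replicate 1, 3 members in place of 4 were called between the regions in vehicle mice, beside 19.2% of all genes, and without HPBCD contralateral replicate 3 the count of members called in HPBCD mice was again 5, beside 51.4% of all genes. In bulk tissue, fewer cells of a type and less RNA per cell cannot be told apart.

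Promoter sequence is shown for the 2 glutamate transporters and the 2 connexins, since within each of these pairs one gene differed between regions in vehicle mice and the other did not pass the test. Each run is the 250 bases before the RefSeq start of the gene in GRCm38.p6, read 5′ to 3′ on the strand of the gene. The Slc1a2 window precedes a RefSeq start that lies inside the gene as GENCODE M21 draws it. Capitals mark exact matches, on either strand, to 4 short motifs, which are the STAT motif TTCNNNGAA, the NFI half-site TTGGC, the GC box GGGCGG and the TATA box TATAAA.
Slc1a3, chr15:8710808-8711057, minus strand: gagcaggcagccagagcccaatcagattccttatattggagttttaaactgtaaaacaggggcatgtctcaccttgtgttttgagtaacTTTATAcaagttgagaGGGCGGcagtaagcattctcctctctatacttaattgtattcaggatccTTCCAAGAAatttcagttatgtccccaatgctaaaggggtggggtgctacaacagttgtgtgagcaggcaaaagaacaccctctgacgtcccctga
Slc1a2, chr2:102706188-102706437, plus strand: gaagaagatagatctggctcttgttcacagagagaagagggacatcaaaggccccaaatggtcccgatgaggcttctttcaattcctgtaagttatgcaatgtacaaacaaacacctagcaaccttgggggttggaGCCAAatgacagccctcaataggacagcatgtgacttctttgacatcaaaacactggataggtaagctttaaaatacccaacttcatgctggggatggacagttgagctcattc
Gja1, chr10:56377050-56377299, plus strand: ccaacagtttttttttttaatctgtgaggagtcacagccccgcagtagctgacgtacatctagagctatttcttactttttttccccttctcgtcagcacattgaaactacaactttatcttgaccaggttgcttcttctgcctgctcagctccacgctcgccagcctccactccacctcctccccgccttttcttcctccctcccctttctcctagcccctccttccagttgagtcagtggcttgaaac
Gjb6, chr14:57133612-57133861, minus strand: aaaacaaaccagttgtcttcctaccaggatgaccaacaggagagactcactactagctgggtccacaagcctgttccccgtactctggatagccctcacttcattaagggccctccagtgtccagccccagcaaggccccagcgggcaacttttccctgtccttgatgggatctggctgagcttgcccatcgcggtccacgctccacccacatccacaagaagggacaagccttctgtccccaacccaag

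The Slc1a3 window held 1 STAT motif, whose first base lies at position -96, 1 GC box at position -145 and 1 TATA box on the opposite strand at position -161, counted from the start. The Slc1a2 window held 1 NFI half-site, on the opposite strand, at position -114. The Gja1 and Gjb6 windows held none of the 4 letter strings, and no matches overlapped in these windows. Among the windows of equal length before 32851 RefSeq starts, 7.02% held the STAT motif, 41.5% the NFI half-site, 32.7% the GC box and 12.4% the TATA box. A match describes letters and was not tested as a binding site.

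Per length of exon, the members spanned a wide range of levels. In vehicle contralateral tissue, Glul, which encodes glutamine synthetase, was highest at 712 ± 74.9 CPM per kb (SD, n = 5). Aldoc, encoding the brain form of aldolase, followed at 377 ± 40.3 CPM per kb. Slc1a2, the glutamate transporter GLT-1, had 203 ± 13.0 CPM per kb, S100b, a calcium-binding protein, had 129 ± 16.9 CPM per kb, and Slc1a3, the glutamate transporter GLAST, had 77.2 ± 5.54 CPM per kb. The ranges over the 5 libraries of these 5 genes did not touch one another, so the upper part of the order was the same in every library of the group. The lower part was less sharply ordered. Kcnj10, the potassium channel Kir4.1, had 34.9 ± 4.33 CPM per kb and overlapped Gjb6, encoding connexin 30, at 25.4 ± 6.54 CPM per kb, which in turn overlapped Gja1, encoding connexin 43, at 21.2 ± 2.0 CPM per kb. Aqp4, the water channel aquaporin 4, had 16.8 ± 1.77 CPM per kb and overlapped Aldh1l1, a folate enzyme widely used to mark astrocytes, at 14.2 ± 1.11 CPM per kb. Over all 20 libraries, Glul ranked 27th and Aldoc 63rd per length among 29917 genes with a count, while Aldh1l1 ranked 2895th.

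The order in HPBCD contralateral tissue was the same at each of the 10 places. In peri-infarct tissue of both treatments Aqp4 stood at the 6th place in place of the 9th, at 49.6 ± 19.9 CPM per kb in vehicle and 86.1 ± 23.0 CPM per kb in HPBCD peri-infarct tissue. In HPBCD peri-infarct tissue S100b took the 3rd place with 277 ± 75.4 CPM per kb, above Slc1a2 at 194 ± 14.8 CPM per kb, with overlapping ranges. Kcnj10 stood there at the 9th place in place of the 6th, although its level per length, at 44.8 ± 5.48 CPM per kb, was not below that of contralateral tissue.

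**Figure D1:**
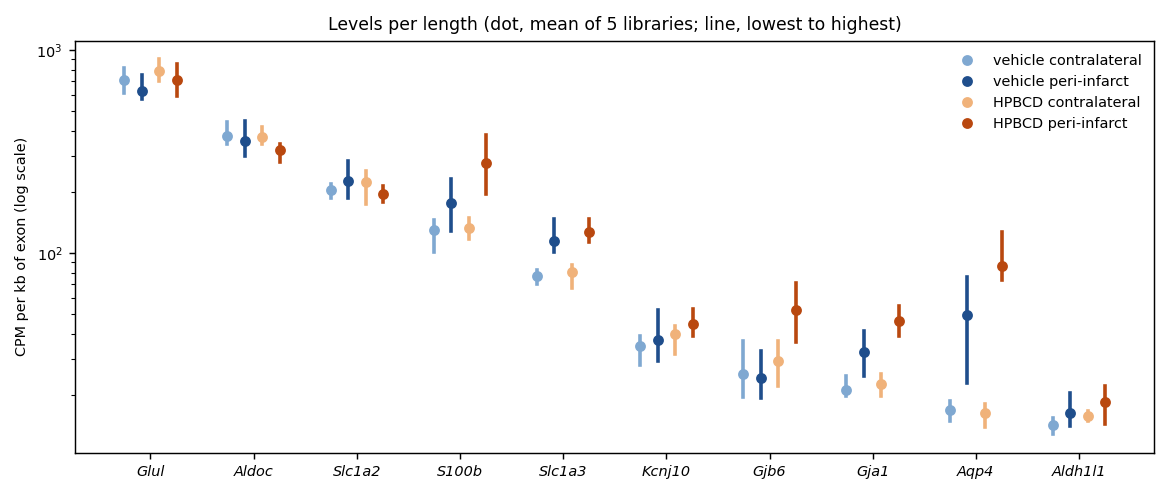
Levels of the 10 members in CPM per kb of exon, on a log axis, by group. Dots are means of 5 libraries and lines run from the lowest to the highest library. Glul stood highest in every group and Aqp4 climbed from 16.8 CPM per kb in vehicle contralateral to 86.1 CPM per kb in HPBCD peri-infarct tissue.

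In vehicle mice, 4 of the 10 members were higher in peri-infarct than in contralateral tissue (Slc1a3, Aqp4, Gja1 and S100b), 0 were lower and 6 did not pass the test at an edgeR adjusted p under 0.05. Across all 15801 genes tested, 20.2% were called, 10.5% as higher. The median log2 fold change of the members was 0.16, beside 0.01 over all genes tested. In HPBCD mice 5 members were higher (the same 4 and Gjb6) and 0 lower, where 54.6% of 16047 genes were called, 30.3% as higher. The median of the members was 0.44, beside 0.03 over all genes. The 5 of 10 members called in HPBCD mice were thus close to the share of all genes. Groups did not overlap for 3 members in vehicle mice, all higher in peri-infarct tissue, against 13.4% of all genes, and for 5 members in HPBCD mice, 4 higher and 1 lower, against 42.5% of all genes.

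A direct test of whether the regional difference depended on treatment, the region by treatment interaction over all 20 libraries, called 1 member, Gjb6, where 9.41% of 16758 genes were called, 5.03% with a positive value. Between treatments in peri-infarct tissue, 3 members were higher in libraries labelled HPBCD (Gja1, Gjb6 and S100b) and 0 lower, where 21.4% of 16224 genes were called, 12.4% as higher. In the same comparison 7 of 12 reactive astrocyte markers were called higher and 9 of 12 neuron markers lower in libraries labelled HPBCD, which is where the doubt about the treatment labels arises. Groups did not overlap for 1 member there, Gjb6, against 13.4% of all genes. In contralateral tissue edgeR called 0 members and 0% of 15469 genes, DESeq2 and limma voom also called 0 members, and 0 members reached an unadjusted p under 0.05, against 7.91% of all genes. Groups did not overlap there for 0 members, against 1.51% of all genes. The comparisons share libraries with each other and are not independent.

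**Figure D2:**
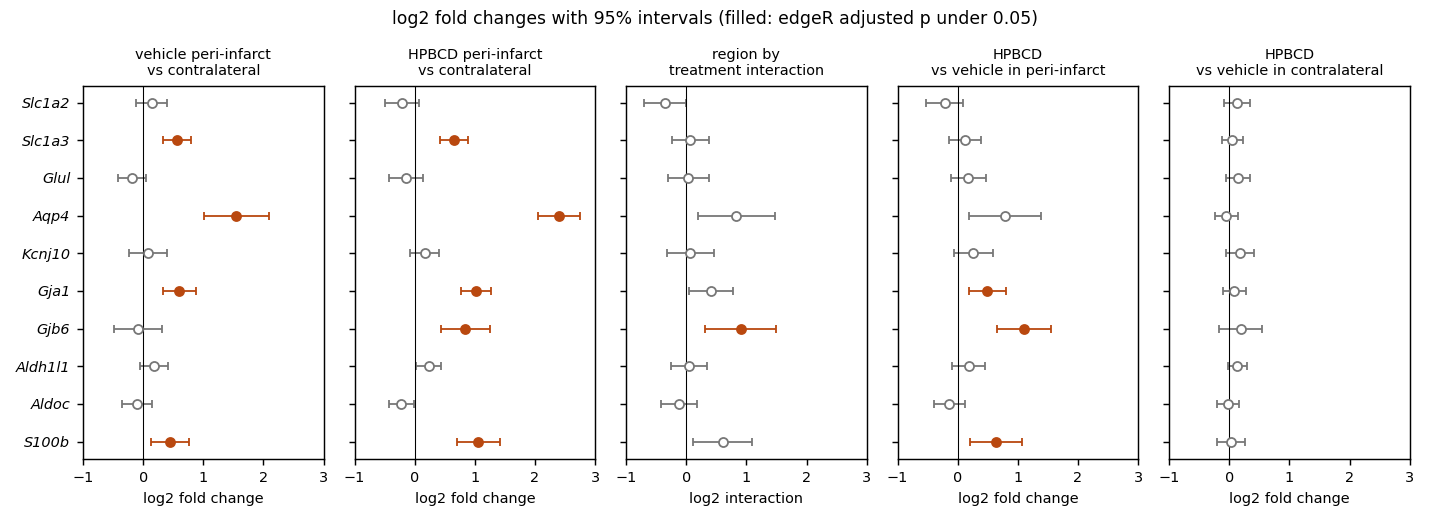
log2 fold changes of the 10 members with 95% intervals in the 4 comparisons of groups, and the interaction (log2 difference between the 2 regional differences, HPBCD minus vehicle). Filled points passed an edgeR adjusted p of 0.05. The regional rise of Aqp4 reached 2.40 in HPBCD mice, and all 10 points of the contralateral treatment comparison lie between -0.05 and 0.19.

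The 2 glutamate transporters differed in how far they changed between the regions. Slc1a3 (15:8634124-8710764, minus strand, 13 exon blocks) stood at 601, 704, 693, 681 and 615 CPM in the vehicle contralateral libraries and at 988, 859.7, 1243, 953 and 874 CPM in the vehicle peri-infarct libraries. Every peri-infarct library lay above every contralateral library. The rise was 1.48-fold (95% interval 1.26 to 1.75, edgeR adjusted p = 0.00583), and each of the 5 animals showed it. In HPBCD mice Slc1a3 stood at 572, 702, 699.5, 712 and 746 CPM in contralateral and at 979, 964, 1086, 1247 and 1105 CPM in peri-infarct libraries. These groups did not overlap either, and the rise was 1.57-fold (1.34 to 1.84, edgeR adjusted p = 0.000197). The regional difference of Slc1a3 did not pass the test of a difference between treatments, with an interaction of 0.07 on the log2 scale (95% interval -0.23 to 0.38, edgeR adjusted p = 0.785).

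Slc1a2 (2:102658659-102790784, plus strand, 20 exon blocks), by contrast, had 2437, 2877, 2704, 2752 and 2566 CPM in vehicle contralateral and 3139, 2651, 3745, 2765 and 2451 CPM in vehicle peri-infarct libraries. The groups overlapped, and the highest value came from peri-infarct replicate 3. The log2 fold change was 0.14 (95% interval -0.12 to 0.39, edgeR adjusted p = 0.453). In HPBCD mice Slc1a2 had 2302, 3284, 3330.4, 3079 and 2725 CPM in contralateral and 2355, 2807, 2599, 2617 and 2352 CPM in peri-infarct libraries. Of the 5 HPBCD animals, 4 had less Slc1a2 in peri-infarct tissue, and the log2 fold change of -0.21 (-0.49 to 0.07) had an edgeR adjusted p of 0.189, whereas limma voom called the fall (-0.33, adjusted p = 0.0113). The interaction of Slc1a2, -0.36 (-0.70 to -0.01), had an edgeR adjusted p of 0.163 and was also called by limma voom (-0.42, adjusted p = 0.0265). A p above the threshold does not show that levels were equal.

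The balance of the transporters was therefore compared inside each library as the log2 ratio of their counts, which does not depend on library scaling. The Slc1a3 to Slc1a2 ratio averaged -2.02 ± 0.04 in vehicle contralateral and -1.58 ± 0.07 in vehicle peri-infarct libraries (SD, n = 5), a difference of 0.44 with no overlap (exact permutation test, two-sided, p = 0.00794, adjusted p = 0.0136 over 12 tests). In HPBCD mice the ratio averaged -2.09 ± 0.16 in contralateral and -1.25 ± 0.19 in peri-infarct libraries, a difference of 0.85 with the same exact p of 0.00794, which is the smallest that 5 against 5 libraries can give. In peri-infarct tissue, the ratio was 0.34 higher in HPBCD than in vehicle libraries (exact p = 0.0238, adjusted p = 0.0357), with overlap at the lower end of the HPBCD group, where replicate 2 had -1.54. In contralateral tissue the difference between treatments was -0.08 (exact p = 0.325, adjusted p = 0.355). A ratio shows unequal change of 2 genes and not which of them moved.

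**Figure D3:**
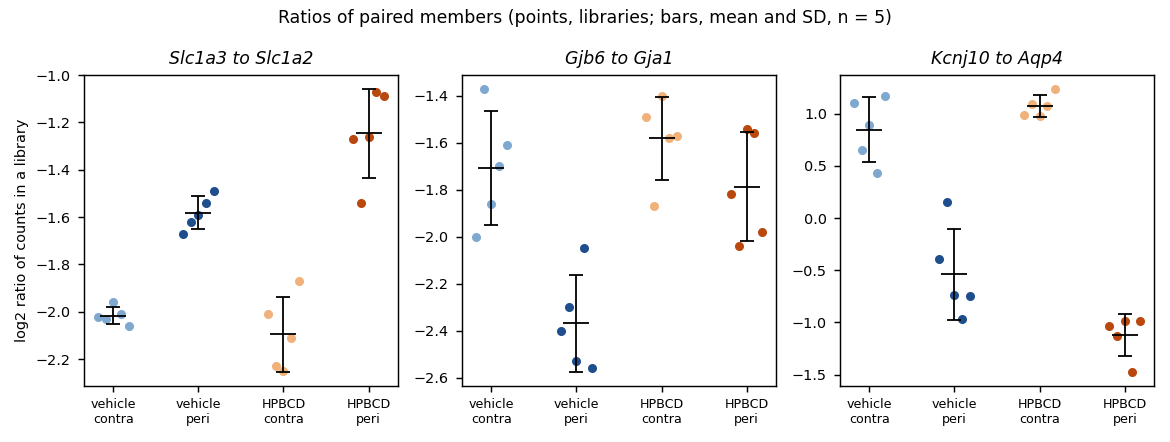
log2 ratios of the counts of 2 members within each library, in the 4 groups. Points are libraries, and bars give the mean and SD of 5. Slc1a3 to Slc1a2 rose from a mean of -2.02 in vehicle contralateral to -1.25 in HPBCD peri-infarct tissue, while Kcnj10 to Aqp4 fell from 0.85 to -1.12.

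Glul (1:153899944-153909723, plus strand, 10 exon blocks) turns the glutamate taken up by these transporters into glutamine. Its levels ran from 2039.9 to 2696 CPM in vehicle contralateral, from 1896 to 2495 CPM in vehicle peri-infarct, from 2323 to 2982 CPM in HPBCD contralateral and from 1959 to 2839.9 CPM in HPBCD peri-infarct libraries. All 4 ranges overlapped. The log2 fold change between regions was -0.19 in vehicle mice (-0.42 to 0.04, edgeR adjusted p = 0.233) and -0.15 in HPBCD mice (-0.42 to 0.13, edgeR adjusted p = 0.341). The difference in vehicle mice was called by limma voom (-0.26, adjusted p = 0.0381). Glul was lower in peri-infarct tissue of 5 of 5 vehicle animals, 3 of them by 0.05 or less on the log2 scale, and of 4 of 5 HPBCD animals. Glul shares 116 bases of exon with Teddm2 on the opposite strand, a gene with 0.386 to 4.29 CPM here.

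Other genes of astrocyte glutamate, glutamine and GABA handling were taken from a list of 12, which leaves out the members. In vehicle mice 4 were higher in peri-infarct tissue and 0 lower, with a median log2 fold change of 0.19. Slc7a11, the cystine and glutamate exchanger, rose from 32.3 ± 11.3 to 60.3 ± 13.0 CPM (log2 0.89, SE 0.22, edgeR adjusted p = 0.0178). In HPBCD mice 6 were higher and 3 lower, with a median of 0.37. Slc7a11 rose there by 2.13 (SE 0.22, edgeR adjusted p = 5.66e-06), from 32.4 ± 7.36 to 141 ± 44.3 CPM, and its interaction of 1.23 passed the test (edgeR adjusted p = 0.0294). Slc6a11, the astrocyte GABA transporter GAT-3, fell in HPBCD mice from 141 ± 17.1 to 96.0 ± 13.3 CPM (log2 -0.55, edgeR adjusted p = 0.00191). Slc7a10, which exchanges serine and other small amino acids, fell from 14.2 ± 1.14 to 8.99 ± 2.17 CPM (log2 -0.65, edgeR adjusted p = 0.00369). The interaction of Slc6a11 was negative, at -0.51, and also passed the test (edgeR adjusted p = 0.0354).

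Of the endfoot genes, the water channel moved furthest of all members between the regions. Aqp4 (chromosome 18, minus strand, 11 exon blocks) had 92.2, 117, 108, 112 and 93.8 CPM in vehicle contralateral and 253, 143, 473, 371 and 307 CPM in vehicle peri-infarct libraries. No peri-infarct library fell into the contralateral range, although replicate 2 came near it. The rise was 2.93-fold (95% interval 2.01 to 4.27, edgeR adjusted p = 0.00286). In HPBCD mice Aqp4 had 86.4, 108, 104, 111 and 99.5 CPM in contralateral and 462, 459.8, 460.1, 789.5 and 513 CPM in peri-infarct libraries. The groups were far apart, and replicate 4 stood above the other 4 peri-infarct libraries. The rise was 5.27-fold (4.15 to 6.68, edgeR adjusted p = 4.96e-07).

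Between treatments in peri-infarct tissue, Aqp4 was 0.79 higher on the log2 scale in HPBCD libraries (95% interval 0.19 to 1.39) and did not pass the threshold (edgeR adjusted p = 0.0599). Vehicle replicate 3, at 473 CPM, lay within the HPBCD range. Without that library the difference was 1.00 and passed it (edgeR adjusted p = 0.0218). DESeq2 gave an adjusted p of 0.0223 and limma voom one of 0.0240 with all libraries. The difference also passed in edgeR with all 4 groups in 1 fit (0.80, adjusted p = 0.0106). With a replicate block, whose number is only a name between treatments, it was 0.86 (edgeR adjusted p = 0.0229). The Aqp4 interaction, 0.83 (0.20 to 1.47), had an edgeR adjusted p of 0.0830. With all libraries it passed in DESeq2 (0.83, adjusted p = 0.0460) and limma voom (0.79, adjusted p = 0.0260), and without vehicle peri-infarct replicate 3 also in edgeR (1.04, adjusted p = 0.0203).

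Kcnj10 (1:172341210-172374085, plus strand, 2 exon blocks) shares the endfoot membrane with Aqp4. It had 197, 183, 201, 151 and 211 CPM in vehicle contralateral and 194, 159, 282, 189 and 182 CPM in vehicle peri-infarct libraries. Apart from replicate 3, the peri-infarct values lay inside the contralateral range. The log2 fold change was 0.08 (95% interval -0.24 to 0.40, edgeR adjusted p = 0.728), and -0.06 without vehicle peri-infarct replicate 3. In HPBCD mice Kcnj10 had 172, 231, 205, 235 and 236 CPM in contralateral and 226, 210.2, 231, 286 and 257 CPM in peri-infarct libraries. The groups overlapped, with a log2 fold change of 0.17 (-0.07 to 0.40, edgeR adjusted p = 0.221).

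Between the regions, the ratio of Kcnj10 to Aqp4 within libraries moved by more than the ratios of the other 2 pairs examined. Its log2 mean was 0.85 ± 0.31 in vehicle contralateral and -0.54 ± 0.44 in vehicle peri-infarct libraries, a difference of -1.39 (exact permutation p = 0.00794, adjusted p = 0.0136). In HPBCD mice it was 1.08 ± 0.10 in contralateral and -1.12 ± 0.20 in peri-infarct libraries, a difference of -2.20 with the same exact p of 0.00794. In peri-infarct tissue the ratio was 0.58 lower in HPBCD than in vehicle libraries with no overlap (-0.58, exact p = 0.00794, adjusted p = 0.0136). In contralateral tissue it differed by 0.23 (exact p = 0.190, adjusted p = 0.229). The log2 ratio of these counts, which are not scaled for gene length, was above 0 in all 10 contralateral libraries and below 0 in 4 of 5 vehicle and 5 of 5 HPBCD peri-infarct libraries.

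Among 15 partners of potassium, water and endfoot function, 4 were higher and 1 lower in vehicle peri-infarct tissue, with a median log2 fold change of 0.17. Mlc1, a membrane protein of astrocyte endfeet, rose from 190.5 ± 20.8 to 282 ± 54.7 CPM (log2 0.56, edgeR adjusted p = 0.0125). Dag1, encoding the dystroglycan that anchors the endfoot complex, rose from 82.9 ± 5.76 to 107 ± 10.3 CPM (log2 0.35, edgeR adjusted p = 0.0123). In HPBCD mice 10 were higher and 2 lower, with a median of 0.37. Mlc1 rose there by 1.03 (edgeR adjusted p = 1.69e-05) and the calcium-permeable channel Trpv4 by 1.28 (edgeR adjusted p = 0.00222), from 1.77 ± 0.910 to 4.29 ± 0.843 CPM. Of the potassium channel genes of the list, Kcnk1 fell by 0.56 (log2 -0.56, edgeR adjusted p = 0.000301). Kcnj16, whose product forms channels with that of Kcnj10, fell from 50.5 ± 6.07 to 42.1 ± 4.31 CPM (log2 -0.26, edgeR adjusted p = 0.0349). Dag1 was the 1 gene of this list with an interaction past the threshold (0.37, edgeR adjusted p = 0.0479).

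Of the 2 astrocyte connexins, Gja1 alone passed the test between regions in vehicle mice and both rose in HPBCD mice. Gja1 (10:56377330-56402513, plus strand, 5 exon blocks) had 208, 252.3, 219, 208 and 201 CPM in vehicle contralateral and 313, 254, 421, 362 and 317 CPM in vehicle peri-infarct libraries. The groups did not overlap, but they nearly met at 252.3 CPM in contralateral and 253.7 CPM in peri-infarct replicate 2. The rise was 1.52-fold (95% interval 1.26 to 1.83, edgeR adjusted p = 0.00779). In HPBCD mice Gja1 had 202, 215, 258, 225 and 257 CPM in contralateral and 410.0, 401, 519, 561 and 463 CPM in peri-infarct libraries. These groups were well apart, with a rise of 2.03-fold (1.71 to 2.41, edgeR adjusted p = 1.15e-05). The interaction of Gja1 was 0.41 (0.05 to 0.77) and did not pass the threshold (edgeR adjusted p = 0.123), though it did in limma voom (0.41, adjusted p = 0.0454) and in edgeR without vehicle peri-infarct replicate 3 (0.51, adjusted p = 0.0384).

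Gjb6 (14:57123303-57133611, minus strand, 4 exon blocks) had 52.0, 97.8, 60.5, 64.0 and 65.8 CPM in vehicle contralateral and 59.5, 51.5, 72.9, 87.5 and 53.7 CPM in vehicle peri-infarct libraries. The ranges covered each other almost wholly, and the highest value was contralateral. The log2 fold change was -0.08 (95% interval -0.48 to 0.32, edgeR adjusted p = 0.798), and 0.10 without vehicle contralateral replicate 2. In HPBCD mice Gjb6 had 72.1, 58.8, 97.8, 75.5 and 86.4 CPM in contralateral and 116, 97.7, 179, 191 and 117 CPM in peri-infarct libraries. The groups met at 97.7 and 97.8 CPM, and in each of the 5 animals the peri-infarct library was higher. The rise was 1.79-fold (1.35 to 2.37, edgeR adjusted p = 0.00227).

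Gjb6 was the 1 member whose regional difference passed the test of a difference between treatments, at 0.91 on the log2 scale (SE 0.28, 95% interval 0.31 to 1.5, edgeR adjusted p = 0.0489). That call was near the threshold, and leaving out 1 library ended it in 12 of 20 cases, with values of 0.74 to 0.94 and adjusted p of 0.0603 to 0.103. These libraries were vehicle peri-infarct replicates 1, 2 and 5, vehicle contralateral replicates 2, 3 and 5, HPBCD peri-infarct replicates 3 and 4, and HPBCD contralateral replicates 1, 2, 4 and 5. Without a filter on low counts the adjusted p was 0.0560. With animals as a replicate block, 2 members were called in place of 1, beside 10.9% of all genes, namely Gjb6 (0.87, edgeR adjusted p = 0.0441) and S100b (0.59, edgeR adjusted p = 0.0442). The S100b interaction also passed in limma voom (0.69, adjusted p = 0.0123).

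The direct comparison of treatments in peri-infarct tissue gave the same order for Gjb6, with every HPBCD library above every vehicle library, a difference of 2.14-fold (95% interval 1.57 to 2.93, edgeR adjusted p = 0.0128) and a call that held without each library in turn. For Gja1 the difference was 1.41-fold (1.13 to 1.74, edgeR adjusted p = 0.0336), with overlapping groups. The Gja1 call was lost without any one of 7 libraries (vehicle replicates 1, 2, 4 and 5 and HPBCD replicates 3, 4 and 5), at log2 values of 0.41 to 0.52 and edgeR adjusted p of 0.0502 to 0.0847. In contralateral tissue the log2 difference between treatments was 0.19 for Gjb6 (-0.17 to 0.55, edgeR adjusted p = 0.807) and 0.08 for Gja1 (-0.11 to 0.28, edgeR adjusted p = 0.857).

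Within libraries, the log2 ratio of Gjb6 to Gja1 was -1.71 ± 0.24 in vehicle contralateral and -2.37 ± 0.21 in vehicle peri-infarct tissue, a difference of -0.66 (exact permutation p = 0.00794, adjusted p = 0.0136). In HPBCD mice it was -1.58 ± 0.18 and -1.79 ± 0.23, a difference of -0.21 that did not pass (exact p = 0.159, adjusted p = 0.212). In peri-infarct tissue the ratio was 0.58 higher in HPBCD than in vehicle libraries with no overlap (exact p = 0.00794, adjusted p = 0.0136).

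Of 10 other connexin and pannexin genes, 9 were tested in vehicle mice, where 0 were higher and 2 lower in peri-infarct tissue, both of which are known from neurons. Panx2 fell from 163 ± 16.7 to 97.3 ± 19.1 CPM (log2 -0.76, edgeR adjusted p = 0.00365). Gjd2, the main connexin of neuronal electrical synapses, fell from 6.43 ± 0.856 to 3.15 ± 0.898 CPM (log2 -1.04, edgeR adjusted p = 0.00639). In HPBCD mice 5 were higher and the same 2 lower, with a median log2 fold change of 0.46. Gjb2, encoding connexin 26 of astrocytes and the meninges, rose from 7.19 ± 4.73 to 86.4 ± 30.6 CPM (log2 3.59, edgeR adjusted p = 7.78e-06). Its interaction was 2.30 (edgeR adjusted p = 0.0387), and in peri-infarct tissue it was 2.11 higher in HPBCD than in vehicle libraries (edgeR adjusted p = 0.0128). Panx2 went the other way, with an interaction of -0.71 (edgeR adjusted p = 0.0224). In peri-infarct tissue Panx2 was lower in HPBCD than in vehicle libraries (log2 -0.50, edgeR adjusted p = 0.0411). Gjb1, the connexin of oligodendrocytes, rose in HPBCD mice from 14.3 ± 2.07 to 36.1 ± 7.67 CPM (log2 1.33, edgeR adjusted p = 9.73e-06).

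Fibroblasts of the meninges also express connexins of these families, and their markers moved with the connexin results. The summed level of 8 fibroblast and meninges markers ran from 75.7 to 388 CPM in vehicle contralateral, 132 to 417 CPM in vehicle peri-infarct, 87.8 to 313 CPM in HPBCD contralateral and 599 to 1375 CPM in HPBCD peri-infarct libraries. All 8 were above 0 in every library, and all 8 were higher in HPBCD than in vehicle peri-infarct tissue. Their part in the result was not tested.

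S100b (10:76253853-76261159, plus strand, 3 exon blocks) encodes a calcium-binding protein that is made by astrocytes and also by some oligodendrocytes and ependymal cells. It had 203, 188, 199.7, 150.0 and 215 CPM in vehicle contralateral and 239, 189, 342, 259.6 and 283 CPM in vehicle peri-infarct libraries. The groups overlapped only through peri-infarct replicate 2. The difference was 1.36-fold (95% interval 1.09 to 1.70) and just passed the threshold (edgeR adjusted p = 0.0493). This call was lost without any library but vehicle peri-infarct replicate 2, at log2 values of 0.35 to 0.50 and edgeR adjusted p of 0.0564 to 0.0922. It was also lost with other scaling factors, at an adjusted p of 0.0534 (RLE) and 0.0527 (upper quartile), without a filter (0.0548) and with all 4 groups in 1 fit (0.0563).

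In HPBCD mice S100b had 174, 173, 192, 220.4 and 222 CPM in contralateral and 354, 289, 361, 567 and 484 CPM in peri-infarct libraries. The groups did not overlap, and the rise was 2.09-fold (1.64 to 2.67, edgeR adjusted p = 0.000131). In peri-infarct tissue S100b was 1.56-fold higher in HPBCD than in vehicle libraries (1.16 to 2.09, edgeR adjusted p = 0.0398). This call was lost without any one of the same 7 libraries as for Gja1, at log2 values of 0.50 to 0.68 and edgeR adjusted p of 0.0602 to 0.0895. The summed level of 8 oligodendrocyte markers was 4545 to 11821 CPM in vehicle contralateral, with a median of 11364 CPM, 6139 to 14835 CPM in vehicle peri-infarct, 5581 to 7035 CPM in HPBCD contralateral, with a median of 6708 CPM, and 12695 to 19573 CPM in HPBCD peri-infarct libraries, and 8 of 8 rose between the regions in HPBCD mice while 0 of 8 passed the test in vehicle mice. In the interaction 3 of these 8 passed the test, and between treatments in peri-infarct tissue 2 of 8 were higher in libraries labelled HPBCD. The part of these cells in the S100b result was not tested.

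Aldoc (11:78322968-78327781, plus strand, 9 exon blocks) encodes the aldolase by which astrocytes are often recognised. Its levels ran from 1120.4 to 1434 CPM in vehicle contralateral and from 984 to 1456 CPM in vehicle peri-infarct libraries, with a log2 fold change of -0.10 (95% interval -0.36 to 0.15, edgeR adjusted p = 0.569). In HPBCD mice it had 1285, 1127, 1167, 1173 and 1355 CPM in contralateral and 1066, 916, 1089.8, 1118 and 1069 CPM in peri-infarct libraries. Every peri-infarct library was below every contralateral library, yet the difference was small, with a log2 fold change of -0.22 (-0.42 to -0.01), and did not pass the threshold (edgeR adjusted p = 0.0652). It passed without HPBCD peri-infarct replicate 4 (-0.25, edgeR adjusted p = 0.0405), in DESeq2 (-0.24, adjusted p = 0.00730) and with RLE factors (-0.24, edgeR adjusted p = 0.0440).

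Aldh1l1 (6:90486427-90600203, plus strand, 25 exon blocks) had 57.9 to 69.7 CPM in vehicle contralateral, 63.6 to 92.4 CPM in vehicle peri-infarct, 67.2 to 75.0 CPM in HPBCD contralateral and 64.6 to 99.6 CPM in HPBCD peri-infarct libraries. The ranges overlapped in both treatments. The log2 fold change between regions was 0.18 in vehicle mice (-0.05 to 0.41, edgeR adjusted p = 0.252) and 0.23 in HPBCD mice (0.02 to 0.44, edgeR adjusted p = 0.0608). Without HPBCD peri-infarct replicate 2, which had the lowest value of its group, the latter was 0.30 and passed (edgeR adjusted p = 0.00717), and it passed in limma voom with all libraries (0.22, adjusted p = 0.0231). Aldh1l1 shares 499 of its 4516 exon bases with the antisense gene Gm15756, which had at most 0.0942 CPM in any library.

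The members that did not pass the test between treatments in peri-infarct tissue had, apart from Aqp4, log2 differences (HPBCD minus vehicle) of -0.22 to 0.26. Slc1a2 had -0.22 (95% interval -0.52 to 0.09, edgeR adjusted p = 0.262) and Aldoc -0.14 (-0.40 to 0.12, edgeR adjusted p = 0.395). Slc1a3 had 0.12 (-0.15 to 0.39, edgeR adjusted p = 0.483), Glul 0.17 (-0.12 to 0.47, edgeR adjusted p = 0.356) and Aldh1l1 0.18 (-0.10 to 0.45, edgeR adjusted p = 0.311). Kcnj10 had 0.26 (-0.06 to 0.58, edgeR adjusted p = 0.211), and 0.41 without vehicle replicate 3, its highest library, at which it passed (edgeR adjusted p = 0.0198), as it did in limma voom with all libraries (0.32, adjusted p = 0.0431). The widest of these intervals still allow a change of up to 0.58 on the log2 scale. In the interaction, Kcnj10, Glul, Aldh1l1 and Aldoc lay between -0.12 and 0.07 (edgeR adjusted p of 0.604 to 0.920).

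**Figure D4:**
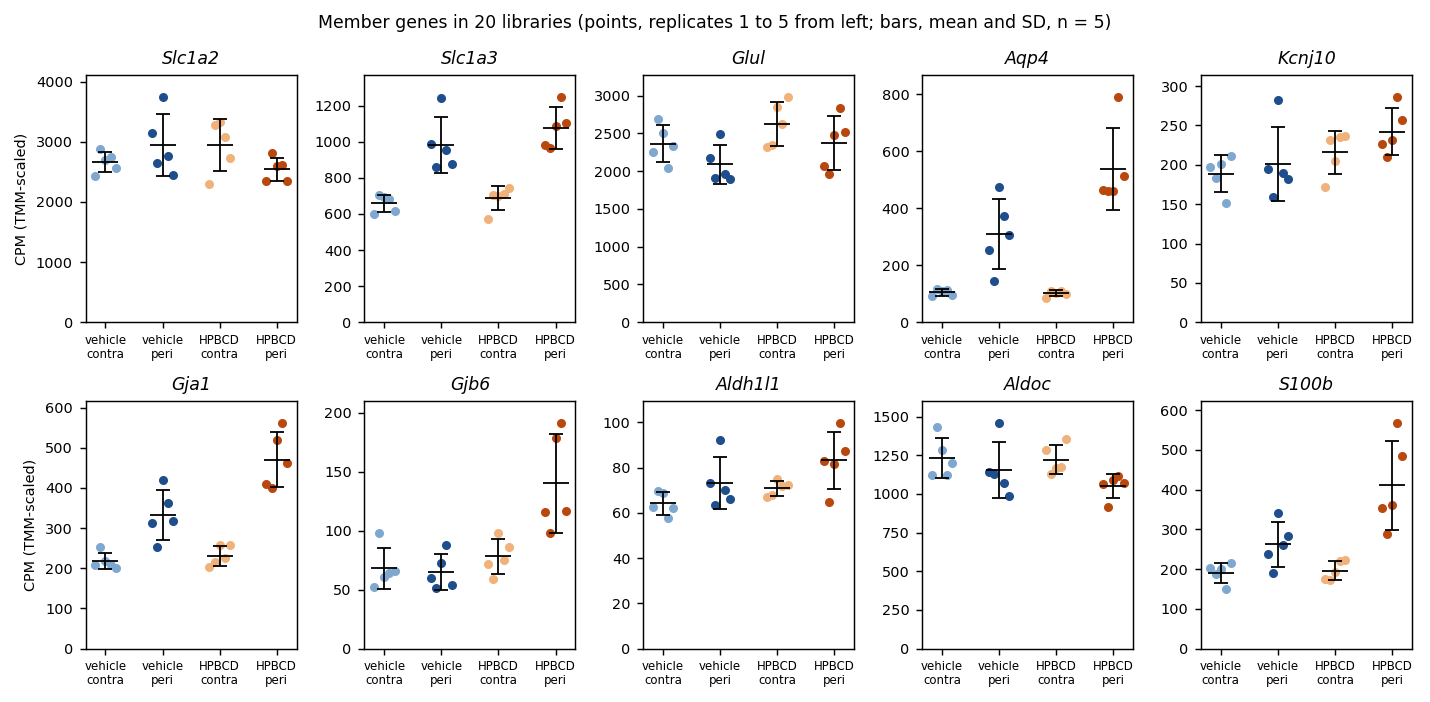
Levels of the 10 members in CPM (TMM-scaled) in each of 20 libraries, by group. Points are replicates 1 to 5 from left to right, and bars give the mean and SD. Aqp4 rose from at most 117 CPM in contralateral libraries to between 459.8 and 789.5 CPM in HPBCD peri-infarct libraries, while Glul, Slc1a2 and Aldoc kept overlapping or nearly touching ranges.

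A list of 14 genes of astrocyte glucose, lactate and one-carbon metabolism surrounds Aldoc and Aldh1l1 in function. In vehicle mice 3 were higher and 2 lower in peri-infarct tissue, with a median log2 fold change of 0.07, and in HPBCD mice 9 were higher and 2 lower, with a median of 0.32. Slc16a1, the lactate carrier MCT1, rose in vehicle mice from 52.3 ± 5.26 to 78.6 ± 19.7 CPM (log2 0.57, edgeR adjusted p = 0.0235). In HPBCD mice Slc16a1 rose from 48.2 ± 3.18 to 134 ± 34.0 CPM (log2 1.47, edgeR adjusted p = 3.71e-06), with an interaction of 0.89 (edgeR adjusted p = 0.0242). Phgdh, the first enzyme of serine synthesis, rose in HPBCD mice from 35.6 ± 3.82 to 70.1 ± 8.79 CPM (log2 0.98, edgeR adjusted p = 6.32e-06). The muscle-type glycogen phosphorylase Pygm fell in vehicle mice from 49.7 ± 7.17 to 30.9 ± 5.60 CPM (log2 -0.70, edgeR adjusted p = 0.00768), whereas the brain type Pygb rose from 184 ± 6.93 to 254 ± 41.3 CPM (log2 0.45, edgeR adjusted p = 0.0126).

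Genes of astrocyte identity and receptors, 20 in number, were higher for 7 and lower for 0 in vehicle peri-infarct tissue, and higher for 11 and lower for 3 in HPBCD peri-infarct tissue. Apoe led both lists with 3051 ± 365 and 8193 ± 4447 CPM in the 2 regions of vehicle mice (log2 1.42, edgeR adjusted p = 0.00944), and it is also expressed by microglia. Fgfr1, a receptor for fibroblast growth factors, rose in vehicle mice from 46.8 ± 5.95 to 85.3 ± 16.1 CPM (log2 0.85, edgeR adjusted p = 0.00292) and had an interaction of 0.85 (edgeR adjusted p = 0.0169). Gpc5 (log2 -0.61, edgeR adjusted p = 0.000391) and Mfge8 (log2 -0.32, edgeR adjusted p = 0.0310) fell in HPBCD mice. Between treatments in peri-infarct tissue 4 of the 20 were higher in HPBCD libraries and 2 lower, namely Hes5 (log2 -0.78, edgeR adjusted p = 0.0295) and Mfge8 (log2 -0.37, edgeR adjusted p = 0.0454).

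Gfap, which marks the reactive state, had a larger fold change between the regions than any member in both treatments. It rose 7.36-fold in vehicle mice (95% interval 4.26 to 12.7, edgeR adjusted p = 0.00146) and 23.1-fold in HPBCD mice (17.3 to 30.8, edgeR adjusted p = 3.56e-08), beside 2.93-fold and 5.27-fold for Aqp4, the member that moved most. The log2 interaction of Gfap was 1.64 and passed the test (edgeR adjusted p = 0.0234). In peri-infarct tissue the log2 level of Gfap was 1.03 higher in libraries labelled HPBCD (95% interval 0.27 to 1.80), which did not pass the threshold (edgeR adjusted p = 0.0552). These signs, too, depend on the doubted treatment labels. The median of Gfap over the 5 libraries was 217 CPM in vehicle contralateral, 1868 CPM in vehicle peri-infarct, 151 CPM in HPBCD contralateral and 3337 CPM in HPBCD peri-infarct tissue. Of 12 reactive astrocyte markers, 11 were tested in vehicle mice and 10 rose, with a median log2 fold change of 2.87, and 12 of 12 rose in HPBCD mice, with a median of 4.43. The summed level of the 10 members, in contrast, had medians of 7558, 8093, 8532 and 8964 CPM in vehicle contralateral, vehicle peri-infarct, HPBCD contralateral and HPBCD peri-infarct tissue, and these sums overlapped between the 2 regions in each treatment. The sums are made up mostly of Slc1a2, Glul and Aldoc, which edgeR did not call, with means of 2667, 2365 and 1231 CPM in vehicle contralateral tissue beside 105 CPM for Aqp4 and 68.0 CPM for Gjb6, so they say little about the members that rose.

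Markers of other cells moved with the regions as well. The summed level of 12 neuron markers had a median of 13155 CPM in vehicle contralateral and 9929 CPM in vehicle peri-infarct tissue, and 5 of 12 were called lower. In HPBCD mice the medians were 14393 CPM and 6658 CPM, and 11 of 12 were called lower. Of 10 microglia and macrophage markers, all rose in both treatments, from sums of 247 to 303 CPM to 419 to 1119 CPM in vehicle mice and from 245 to 274 CPM to 692 to 1309 CPM in HPBCD mice. Markers of the ependyma, whose cells also express Aqp4 and S100b, and of the choroid plexus were summed together. They reached 32.7 to 129 CPM in vehicle and 125 to 835 CPM in HPBCD peri-infarct libraries. Of 8 striatum markers, 8 rose between the regions in HPBCD mice, with a median log2 fold change of 2.81, and 0 passed the test in vehicle mice, with a median of 0.35. In the interaction 0 of these 8 passed the test and 8 had an unadjusted edgeR p under 0.05, with a median of 2.5. Between treatments 0 of the 8 were called in either region. In peri-infarct tissue 0 had an unadjusted edgeR p under 0.05, with a median log2 difference (HPBCD minus vehicle) of 0.43. In contralateral tissue 7 of the 8 striatum markers had one, with a median of -1.98. Their summed levels were 204 to 248 CPM in HPBCD contralateral and 644 to 2003 CPM in HPBCD peri-infarct libraries, beside 332 to 1909 CPM in vehicle peri-infarct libraries and, in vehicle contralateral libraries, the values that set replicate 1 apart. A CPM is a share of a library, so levels of different cell types are not independent of each other. The part of these cells in the results for the members was not tested.

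Within the groups the members tended to be high or low together. Vehicle peri-infarct replicate 3 had the highest level of 9 of 10 members and replicate 2 the lowest of 7. The same 2 libraries were the highest (3794 CPM) and the lowest (777 CPM) of their group in the summed reactive astrocyte markers, and also in the microglia markers. In HPBCD peri-infarct tissue replicate 4 was highest in 9 members and replicate 2 lowest in 9, and again these libraries were at the ends of the reactive astrocyte sums (6711 and 3291 CPM). Slc1a2 was the exception among HPBCD peri-infarct libraries, with its highest level in replicate 2. The coefficient of variation of the members had a median of 10.6% in vehicle contralateral, 18.0% in vehicle peri-infarct, 11.1% in HPBCD contralateral and 14.9% in HPBCD peri-infarct tissue, and was widest for Aqp4 in vehicle peri-infarct tissue at 40.1%.

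Seen by animal, the difference between the regions was positive in all 10 animals for Slc1a3, Aqp4, Gja1 and S100b. For Aqp4 it ran from 0.29 to 2.13 on the log2 scale in vehicle animals and from 2.08 to 2.82 in HPBCD animals. For Gja1 and S100b, vehicle animal 2 had a difference of 0.01, at the bottom of ranges that reached 0.94 and 0.79. Gjb6 was higher in peri-infarct tissue of 3 of 5 vehicle animals, with a range of -0.93 to 0.45, and of 5 of 5 HPBCD animals, from 0.44 to 1.34. Aldoc was lower there in 3 of 5 vehicle animals and in 5 of 5 HPBCD animals, from -0.34 to -0.07.

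**Figure D5:**
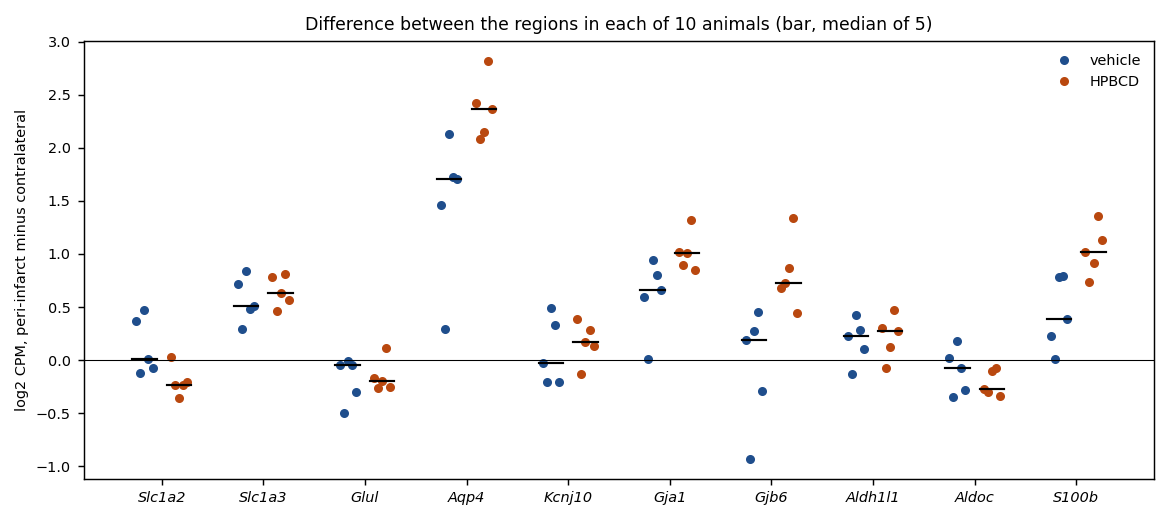
Difference between peri-infarct and contralateral tissue in log2 CPM for each member and animal. Points are the 5 animals of a treatment and black bars the medians. Aqp4 had medians of 1.71 in vehicle and 2.36 in HPBCD animals, and vehicle animal 2 lay lowest for Aqp4 at 0.29.

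To see which transcripts had profiles closest to each member, log2 CPM over the 20 libraries was compared among 11775 genes with a mean of at least 5 CPM. Each profile was centred on its mean, and the likeness is the root-mean-square difference of 2 profiles. It is not scaled by the size of change. Near profiles are therefore those that changed by similar amounts, and genes that vary little lie close together. Aldoc had the closest neighbours, namely Ttyh1 at 0.06 and Ndrg2 at 0.09, both known from astrocytes. The nearest genes to Slc1a2 were Gabrg1 and Rapgef1 at 0.12 and Fgfr3 at 0.13. Slc1a3 was nearest to Plxnb1, Tnfrsf19 and Tm9sf1, each at 0.11, and Kcnj10 to Fgf1 at 0.10, Nacc2 at 0.11 and Crot at 0.13. Aqp4 lay furthest from the other members, with Gja1 the nearest of them at 0.61, and its near neighbours over all genes included Dock8 at 0.20 and Plek at 0.21, both known from cells of the immune system. Gja1 was nearest to Sft2d2 at 0.10, Ctso at 0.11 and Tmem47 at 0.11. Gjb6 also stood apart, with Slc38a2 at 0.20, Aga at 0.21 and the endothelial gene Cdh5 at 0.22. Glul was nearest to Pacsin2, Nol7 and Zfas1 at 0.11, Aldh1l1 to Dazap2 at 0.09, Atp1b2 at 0.10 and Fgf1 at 0.10, and S100b to Krcc1, Lamp1 and Prdx1 at 0.13. These likenesses describe profiles over libraries that share 4 groups.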

How the data were processed

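The authors trimmed reads of stranded mRNA libraries with Trimmomatic 0.32, aligned them to GRCm38 with STAR 2.5.2b and counted them per Ensembl gene with HTSeq, according to the submitters' processing notes and the methods, and deposited raw counts without normalization, 1 table per library. Which annotation release and which strand option they counted with is not given in the sources used here, so members that overlap another gene (Slc1a2, Glul and Aldh1l1) have somewhat uncertain counts. Of 46078 genes, 98.157% were found in GENCODE M21 (GRCm38), from which symbols, positions and exon lengths were taken. Promoter sequences are from RefSeq (GRCm38.p6), and 9 members were looked up there. The 5 summary lines of each table entered neither the library sizes nor the tests. Read pairs without a feature were 4.39% to 9.50%, ambiguous ones 3.94% to 8.03% and those not unique 16.6% to 24.3%. HPBCD contralateral replicate 4 alone set the upper ends of 9.50% and 8.03%, with the next highest libraries at 5.858% and 4.162%. It also had the fewest gene counts, 14445021. No tables were identical. Floors and counts cover counting error only, since the reads carry no molecular identifiers.

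Groups and replicate numbers came from the titles. The members and lists were chosen with earlier results of these data known. Every comparison was fitted over all genes with the quasi-likelihood test of edgeR 4.0.16 (R 4.3.3, TMM factors, filterByExpr filter, Benjamini-Hochberg adjustment, threshold 0.05). The 10 libraries of the 2 groups entered each comparison, and all 20 the interaction. Ratios used a prior count of 0.5 and two-sided exact permutation tests over every way to divide 10 libraries equally (scipy 1.17.1). Named genes were all members, Gfap, the 2 called genes with the largest change in each direction of each other list (a selection of these is printed), and the 3 genes most like each member. Gene positions are given as chromosome:start-end in GRCm38. The scripts were tested on simulated data with known changes.

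In 10 of 10 cases the deposited names give 1 identifier to the same-numbered libraries of both regions of a treatment, and this was taken as the animal. Deviations of such libraries from their group means correlated with a mean r of 0.09 over 10 pairs, 4 of them over 0.1, so the pairing rests on the identifier. Between treatments the number is a name only. The labels name no batch, and p-values measure the spread between the libraries of a group. The alternatives were DESeq2 1.42.0, limma 3.58.1 voom with sample quality weights, RLE and upper quartile factors, no filter, at least 10 counts in every sample, a replicate block, all 4 groups in 1 fit, and each library left out in turn.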

Additional observations from a re-analysis of the deposited data

Results flagged for a closer look

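In 4 of 40 groups of 5 libraries, 1 library lay far from the others of its group by Dixon's test at the 95% level, where chance gives about 1 in 20. Slc1a3 was 572 CPM in HPBCD contralateral replicate 1, with the next library at 699.5 CPM. Aqp4 was 789.5 CPM in HPBCD peri-infarct replicate 4, with the next at 513 CPM. Kcnj10 was 282 CPM in vehicle peri-infarct replicate 3, with the next at 194 CPM. Aldoc was 916 CPM in HPBCD peri-infarct replicate 2, with the next at 1066 CPM.

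The regional difference of Gjb6 was larger in mice labelled HPBCD than in those labelled vehicle by 0.91 on the log2 scale. The edgeR test of the interaction gave an adjusted p of 0.0489, near the threshold. Leaving out 1 library ended that call in 12 of 20 cases. Gjb6 was 1 of 10 members called, beside 9.41% of all genes. In the peri-infarct region 5 of 5 HPBCD animals and 3 of 5 vehicle animals had more Gjb6 than on the contralateral side, in the same libraries as the test.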

How the results depend on the processing

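Under all alternatives the count of members called between the regions was 3 to 5 in vehicle mice, where 9.98% to 32.1% of all genes were called, and 5 to 7 in HPBCD mice, where 33.1% to 58.8% were. Members called by the interaction numbered 2 with DESeq2 (15.0% of all genes), 5 with limma voom (24.5%), 0 without a filter (3.73%), 2 with the replicate block (10.9%) and 0 to 4 without each library in turn (3.12% to 18.4%). Members called between treatments in peri-infarct tissue numbered 4 with DESeq2 (29.9% of all genes) and 5 with limma voom (37.1%). They numbered 4 with all 4 groups in 1 fit (29.7%) and 1 to 5 without each library in turn (5.03% to 32.5%). There the replicate number is a name only, and the block gave 4 (4375 of 16224 genes). In contralateral tissue 0 members were called under every alternative, with at most 0.431% of all genes.

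Directions that turned belonged to differences that passed no test. With limma voom, Kcnj10 between the regions of vehicle mice became -0.04, the Aldoc interaction 0.01, and between treatments in contralateral tissue Aqp4 became 0.01 and S100b -0.02. Without each library in turn, the log2 fold change between the regions of vehicle mice ran from -0.06 to 0.15 for Kcnj10 and from -0.20 to 0.10 for Gjb6. The interaction ran from -0.0025 to 0.22 for Kcnj10, from -0.04 to 0.12 for Glul and from -0.03 to 0.15 for Aldh1l1. Between treatments in contralateral tissue it ran from -0.06 to 0.04 for Aldoc, from -0.05 to 0.07 for S100b and from -0.09 to 0.01 for Aqp4. The cause was not tested. The ratios of paired members kept their direction, and by unadjusted p their side of the threshold, without a prior count and without each library in turn. For Slc1a3 to Slc1a2 between treatments in peri-infarct tissue, the exact p without 1 library ran up to 0.0476 before any adjustment, so that call is not secure. Between the regions, a paired test of 5 animals cannot give a p below 0.0625, and between treatments no animals are paired.

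The regional rises of Slc1a3, Aqp4 and Gja1 passed under every alternative in both treatments. Each group held 5 libraries, which limits how small a difference can be called, and every member had over 50 CPM in every library, far above the counting floor.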
